A study of Rattus norvegicus with 15 samples.

Results

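Hspa5, Apoe and App are 3 of the 22050 rat genes in the deposited count table, and were followed across its 15 libraries as genes whose proteins are made on ribosomes bound to the endoplasmic reticulum (ER). They were chosen by their Ensembl identifiers, ENSRNOG00000018294 for Hspa5, ENSRNOG00000018454 for Apoe and ENSRNOG00000006997 for App. The table holds identifiers only, and the RefSeq gene table used here paired 0 of them with a symbol, so the 3 names are those given with the choice of genes and were not checked against an annotation. For the same reason no other gene of the pathway and no cell type marker could be matched by name, and the whole-brain label was not checked against markers.

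The starting material was whole brain of postnatal day 5 Sprague Dawley rats, and each homogenate pooled 5 brains. Ribosome footprints, the RNA fragments that a ribosome shields from RNase I, were made from the dense pellet of a sucrose gradient in 3 conditions, which were vehicle (5 libraries), cycloheximide (3) and salt (2), and RNA-seq was made from untreated homogenate (5). Cycloheximide, which stalls elongating ribosomes, was present at 100 ug/ml from homogenisation onwards, and in the salt group the resuspended pellet stood in 400 mM NaCl before it was brought back to the 150 mM of the buffer and digested. Detergent was added only after a first low-speed spin had removed debris. Pooled brains are the unit of each library, and the labels do not say whether libraries of a group came from separate pools, so p-values measure the spread between these libraries, which may be technical.

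The libraries fall into 2 sets that differ in depth. Libraries 1 to 3 of vehicle, cycloheximide and RNA held 19223750 to 53645452 counts, and vehicle and RNA libraries 4 and 5 with both salt libraries held 941637 to 2808779. At the lower depth the 3 genes still had 394 to 2855 counts in every library. For App the 95% Wilson intervals for counting error overlapped between vehicle libraries 4 and 5 and between the salt libraries. In the shallowest library, salt 1, Hspa5 stood at 492 CPM, which is the count scaled to a library total of 1000000, with a 95% Wilson interval of 449 to 539 that covers counting error only.

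Proteins bound for secretion, for membranes or for the ER itself carry an N-terminal signal peptide. When it emerges from the ribosome, the signal recognition particle brings the whole complex to the ER membrane, and synthesis continues into the translocon. Hspa5, also called BiP, is the main chaperone of the ER lumen and is retained there. Apoe is a secreted apolipoprotein that carries cholesterol in the brain and comes mostly from astrocytes. App is the amyloid precursor protein, a membrane protein of neurons and other cells that is cut by secretases.

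The upstream region of Hspa5 is shown because it holds an exact match to the ER stress response element. Through such elements unfolded protein in the ER is known to raise this gene. The region is given from RefSeq on build GRCr8 at chr3:38452766-38453015, plus strand, as the 250 bases before the transcript start. The CCAAT and CCACG parts of the exact match are in capitals.
Hspa5: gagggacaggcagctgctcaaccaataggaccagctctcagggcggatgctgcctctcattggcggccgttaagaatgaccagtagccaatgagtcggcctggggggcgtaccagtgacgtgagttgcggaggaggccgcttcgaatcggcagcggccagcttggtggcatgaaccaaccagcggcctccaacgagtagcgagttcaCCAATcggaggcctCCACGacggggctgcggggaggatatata
The element searched was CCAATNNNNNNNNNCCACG on both strands. The match spans positions -43 to -25 relative to the start, and inexact copies were not searched for. In windows of 300 bases around annotated starts, 22 of 33469 (0.0657%) held the element. The 3 windows of Apoe and the 1 window of App did not hold these letters. No measurement here reads promoter activity, and the match is a description of the sequence.

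**Figure D1:**
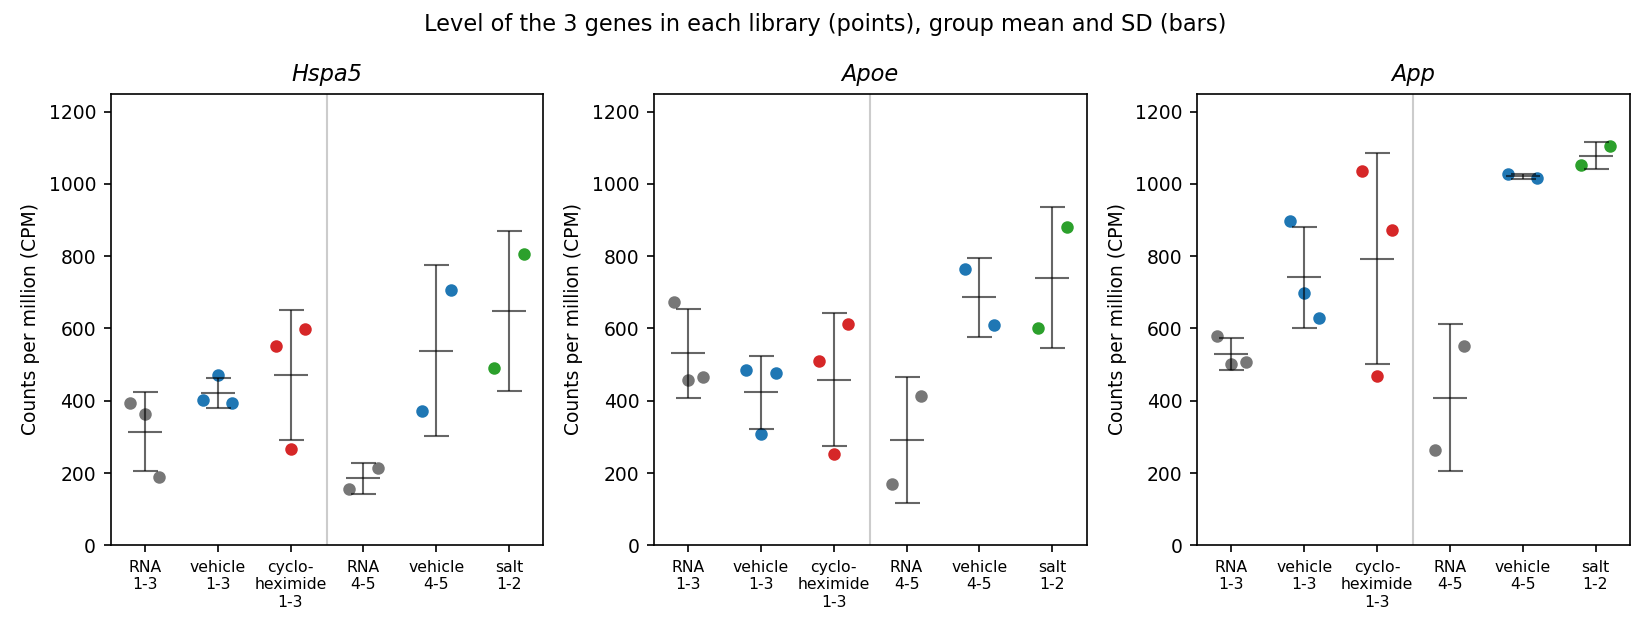
CPM of each gene on the y axis in every library (points), by group on the x axis, with the group mean and SD (bars). The grey line separates the deeper libraries on the left from the shallower ones on the right. App stood at 629 to 1026 CPM in vehicle footprints and at 264 to 580 CPM in RNA, while the ranges of Hspa5 and Apoe overlapped.

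Footprints were first set against homogenate RNA, which asks whether these transcripts carried more or fewer pellet-fraction footprints than their RNA level. Hspa5 and App rose in footprints relative to RNA by 2.59-fold and 2.47-fold, and both calls held in all 22 alternative fits of each gene. Apoe rose by 1.71-fold, but this call was lost in 16 of its 22 alternatives. In the brain as a bulk tissue, fewer cells of a type and less RNA per cell cannot be told apart in the RNA level.

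The chaperone Hspa5 stood at 402, 470.2, 395, 372 and 706 CPM in vehicle footprint libraries 1 to 5. In RNA libraries 1 to 5 it stood at 393, 363, 189, 156 and 215 CPM. Every footprint library lay above the same-numbered RNA library, but these numbers did not pair the libraries. The share of all genes with this pattern is not given. The groups overlapped slightly, since footprint library 4 lay below RNA library 1. The mean was 469 ± 138 CPM (SD, n = 5) over the footprint libraries and 263 ± 108 CPM (SD, n = 5) over the RNA libraries. The log2 ratio was 1.37 (SE 0.26, 95% interval 0.81 to 1.94, edgeR adjusted p = 0.00123).

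App, the membrane protein, stood at 897, 697, 629, 1026 and 1016 CPM in vehicle footprint libraries 1 to 5. Its RNA stood at 580.01, 501, 508, 264 and 552 CPM in libraries 1 to 5. The groups did not overlap, which held for 2.29% of all genes tested in the direction of more footprints. App averaged 853 ± 182 CPM (SD, n = 5) over the footprint libraries against 481 ± 125 CPM (SD, n = 5) over the RNA libraries. The log2 ratio was 1.30 (SE 0.21, 95% interval 0.86 to 1.75, edgeR adjusted p = 0.000399).

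The apolipoprotein gene Apoe stood at 486, 307, 478, 764 and 609 CPM in vehicle footprint libraries 1 to 5. Its RNA stood at 674, 457, 465, 169 and 414 CPM in libraries 1 to 5. The groups overlapped over most of their range. By number, the footprint library was the higher one in 3 of 5 cases on the CPM scale. With the TMM factor, on which the fit rests, it was higher in 5 of 5. The numbers did not pair the libraries. Apoe averaged 529 ± 170.003 CPM (SD, n = 5) over the footprint libraries against 436 ± 180.1 CPM (SD, n = 5) over the RNA libraries. The log2 ratio was 0.77 (SE 0.28, 95% interval 0.17 to 1.38, edgeR adjusted p = 0.0459), and its adjusted p ranged from 0.0233 to 0.499 over the alternatives.

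Among the 15520 genes tested in this comparison, 15.2% were called with more footprints and 20.2% with fewer, so a call alone was common. The log2 ratio of Hspa5 exceeded that of 97.5% of the genes tested, that of App 96.9% and that of Apoe 86.1%. These ranks are for both sets of libraries together, and they were lower in libraries 1 to 3 alone. The level of the ratio depended on the scaling. The median log2 ratio of all genes was -0.17 with TMM and -0.68 when only total counts were used. With total counts Hspa5 had a log2 ratio of 0.86 (edgeR adjusted p = 0.0219) and App one of 0.82 (adjusted p = 0.00981). Apoe had 0.28 on that scale (edgeR adjusted p = 0.499), which was still above the ratios of 86.5% of all genes. With total counts 814 genes were called with more footprints and 5665 with fewer, against 2355 and 3142 with TMM. A footprint covers only translated sequence while RNA-seq reads can come from the whole transcript. The ranks among genes given here, and the ratios of gene pairs given below, were not corrected for this.

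**Figure D2:**
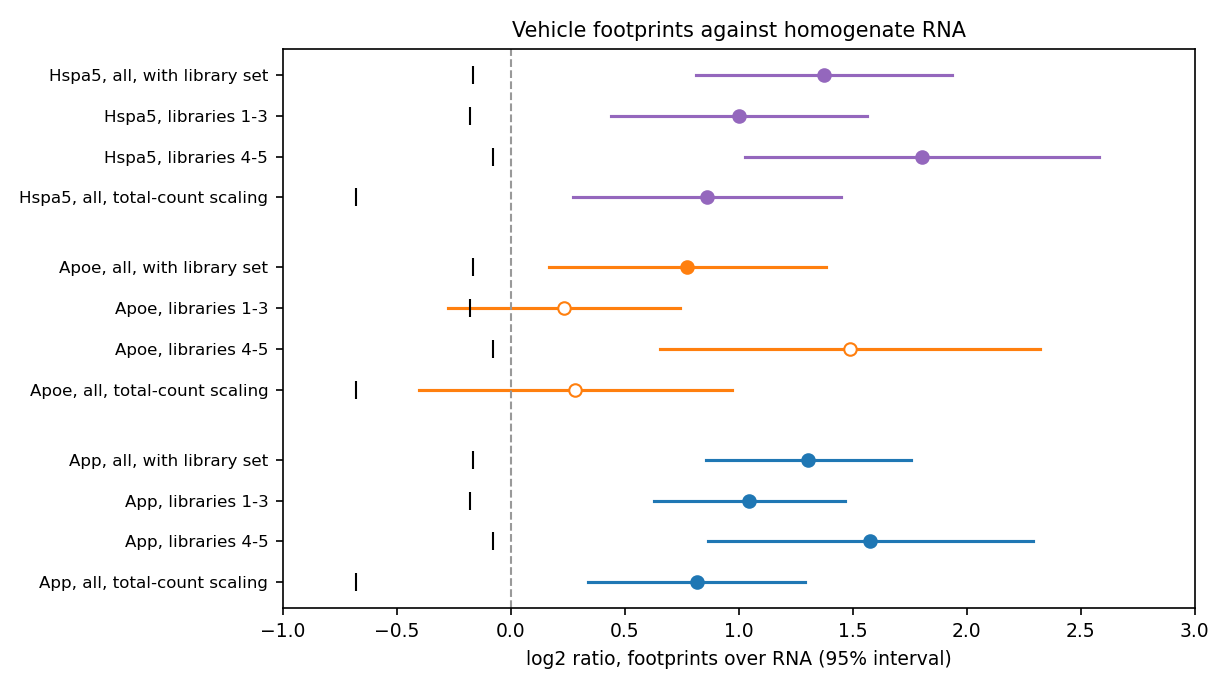
Fitted log2 ratio of vehicle footprints over homogenate RNA on the x axis, with its 95% interval, for each gene and choice of libraries or scaling on the y axis. Filled points passed an adjusted p of 0.05, open points did not, and each black tick marks the median of all genes in that fit. Hspa5 and App were to the right of 0 with filled points in all 4 fits shown, and Apoe had a filled point in 1 of them.

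The ratios were then taken within each set of libraries. In libraries 1 to 3 the mean CPM of Hspa5 in vehicle footprints was 1.34 times that in RNA, and in libraries 4 and 5 it was 2.91 times. For App the ratios were 1.40 and 2.50. For Apoe they were 0.796 and 2.36, so its footprints lay below its RNA in the deeper libraries and above it in the shallower ones on the CPM scale. With the TMM factor all 6 ratios were above 1, with Apoe at 1.23 in libraries 1 to 3 and 2.84 in libraries 4 and 5.

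Fitted within libraries 1 to 3, the log2 ratio was 1.00 for Hspa5 (edgeR adjusted p = 0.00823), 1.05 for App (adjusted p = 0.00137) and 0.23 for Apoe (adjusted p = 0.416). In that fit 22% of genes were called with more footprints. Within libraries 4 and 5 the log2 ratios were 1.80 for Hspa5 (edgeR adjusted p = 0.0277), 1.58 for App (adjusted p = 0.0326) and 1.49 for Apoe (adjusted p = 0.0638), where 1.61% of genes were called in that direction. All 3 genes thus had the larger ratio in the shallower libraries. In libraries 1 to 3 the ratio of Hspa5 exceeded that of 88.9% of genes, that of App 89.9% and that of Apoe 65.0%. In libraries 4 and 5 these shares were 98.5%, 97.5% and 96.9%.

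The difference of the ratio between the sets was tested as an interaction. It was 0.77 for Hspa5 (SE 0.47, edgeR adjusted p = 0.373), 1.21 for Apoe (SE 0.45, adjusted p = 0.150) and 0.49 for App (SE 0.37, adjusted p = 0.487), on the log2 scale. None of the 3 was called, and Apoe had an unadjusted p of 0.0183. Single libraries moved these differences by over 1.5 times, with no call in any of these fits. For Hspa5 the difference was 0.14 without vehicle library 5, 1.21 without vehicle library 4 and 1.20 without RNA library 3. For App it was 0.24 without RNA library 4 and 1.10 without RNA library 5. For Apoe it was 1.98 without RNA library 5. The median difference of all genes moved too, from -0.27 in the main fit to -0.55 without vehicle library 5 and -0.21 without vehicle library 4. It was -0.11 without RNA library 3, 0.054 without RNA library 4 and -0.14 without RNA library 5. These medians cover different genes, since the filter kept 15818 without RNA library 3 and 17035 without vehicle library 4. With all libraries and no filter on low counts the median was -0.085. Of 16191 genes tested, 2.47% were called in either direction with edgeR. The adjusted p of Apoe was 0.0592 with DESeq2 and 0.124 with limma-voom.

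The Apoe ratio fell furthest without RNA library 4. RNA library 4 held Apoe at 169 CPM, the lowest of the 5 RNA libraries, and without that library its log2 ratio was 0.35 (edgeR adjusted p = 0.240). Its call was also lost without vehicle library 1, 3, 4 or 5 and without RNA library 2, 3 or 5, at log2 ratios of 0.65 to 0.83. The call was kept without vehicle library 2 and without RNA library 1. RNA library 4 was also the lowest RNA library for Hspa5, at 156 CPM, and for App, at 264 CPM. Without it the log2 ratios of Hspa5 and App were 1.08 (edgeR adjusted p = 0.00951) and 0.98 (adjusted p = 0.000881). The median log2 ratio of the genes tested was -0.17 in the main fit and -0.38 without RNA library 4. These medians cover different genes, since the filter kept 15520 in the main fit and 16182 without RNA library 4. With all libraries and no filter on low counts the median was -0.49. How much of each fall was shared across genes was not tested. Without RNA library 4 the ratio of Apoe exceeded that of 76.7% of genes, that of Hspa5 95.5% and that of App 94.0%.

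Ratios of the counts of a pair of these genes within a library do not depend on how libraries are scaled. These were examined after the values had been seen. App had 2.23, 1.48, 1.59, 2.76 and 1.44 times the counts of Hspa5 in vehicle footprint libraries 1 to 5 and 1.47, 1.38, 2.69, 1.701 and 2.56 times in RNA libraries 1 to 5. The groups overlapped fully, and the mean log2 difference was -0.037 (exact two-sided permutation p = 0.865). The SD of the log2 count ratio was 0.41 over the footprint libraries and 0.45 over the RNA libraries (n = 5 each), so the difference was far smaller than the spread between libraries.

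App was then set against Apoe, and the difference between the sets was not tested for these count ratios. App had 1.85, 2.27, 1.32, 1.34 and 1.67 times the counts of Apoe in vehicle footprint libraries 1 to 5, and 0.860, 1.10, 1.09, 1.57 and 1.33 times in RNA libraries 1 to 5. In libraries 1 to 3 the footprint and RNA values did not overlap, while in libraries 4 and 5 they did. The share of other gene pairs without overlap was not computed, so the gap in libraries 1 to 3 is a description. The mean log2 difference was 0.51 over all libraries (exact two-sided permutation p = 0.0397, 0.119 after adjustment over the 3 gene pairs). That permutation ignored the library sets, although the mean log2 ratio in RNA was 0.015 in libraries 1 to 3 and 0.53 in libraries 4 and 5. The difference was 0.81 in libraries 1 to 3 (exact p = 0.1, the smallest that 3 against 3 allows) and 0.052 in libraries 4 and 5 (exact p = 0.667). For Hspa5 against Apoe the difference was 0.54 (exact two-sided permutation p = 0.167, adjusted 0.25), with 0.83 in libraries 1 to 3 and 0.12 in libraries 4 and 5. No pair passed the threshold after adjustment.

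**Figure D3:**
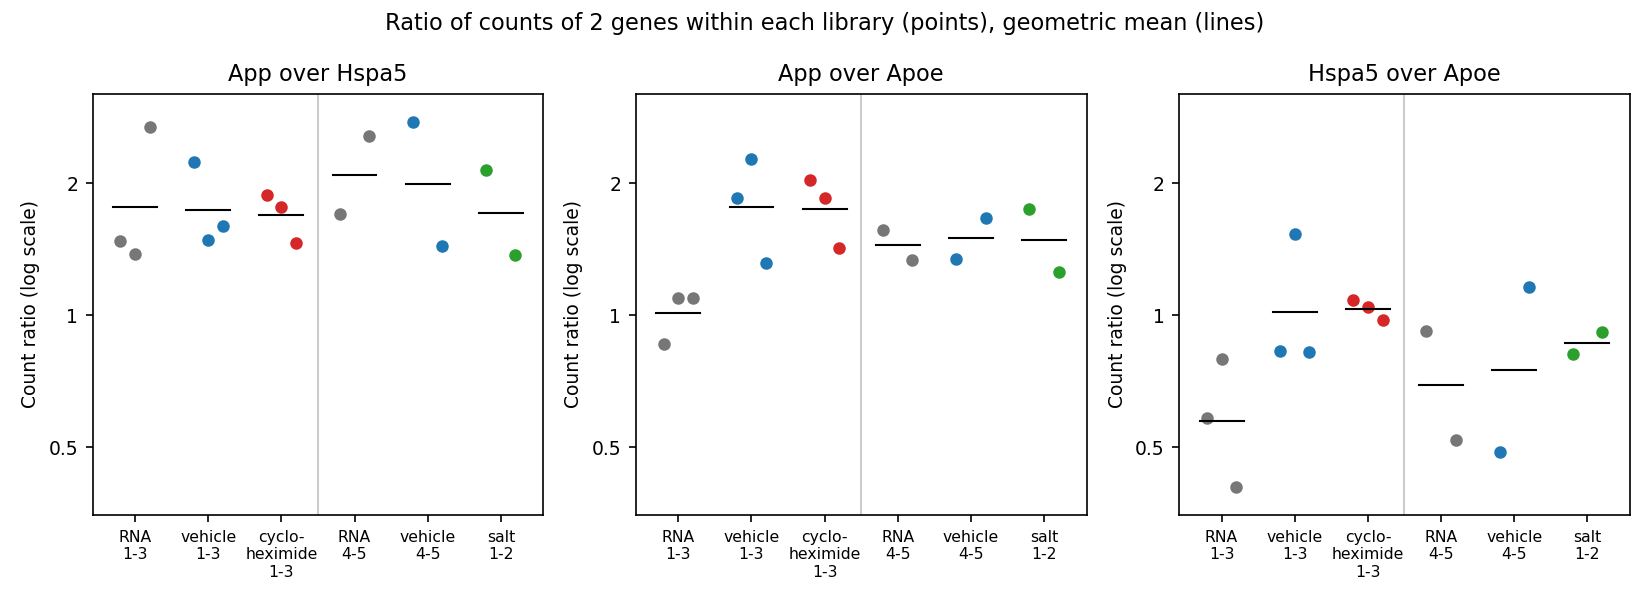
Ratio of the counts of a pair of genes within each library (points, log scale on the y axis) by group on the x axis, with geometric means (lines). In libraries 1 to 3 the App over Apoe ratio was 0.860 to 1.10 in RNA and 1.32 to 2.27 in vehicle footprints. These ratios were examined after the values had been seen, and the gap is a description.

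The cycloheximide comparison asked whether the inhibitor changed these footprints. It was made within libraries 1 to 3, and none of the 3 genes was called. Hspa5 stood at 551, 265 and 599 CPM in cycloheximide libraries 1 to 3, against 402, 470.2 and 395 CPM with vehicle. Apoe stood at 509, 254 and 614 CPM with cycloheximide, against 486, 307 and 478 CPM with vehicle. App stood at 1035, 469 and 873 CPM with cycloheximide, against 897, 697 and 629 CPM with vehicle. All 3 genes were higher with cycloheximide in numbers 1 and 3 and lower in number 2, and the groups overlapped in each gene. Over all genes tested, 3.51% had groups that did not overlap.

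The log2 fold change was 0.12 for Hspa5 (95% interval -0.55 to 0.79), 0.080 for Apoe (-0.68 to 0.84) and 0.060 for App (-0.62 to 0.74). The edgeR adjusted p was 1.00 for each. In this comparison edgeR called 0% of the 13871 genes it tested, 70 of which reached an unadjusted p below 0.05, and DESeq2 and limma-voom each called 0. The intervals run from 0.683 to 1.73-fold for Hspa5, from 0.624 to 1.79-fold for Apoe and from 0.652 to 1.67-fold for App. Paired by number, the intervals were narrower, at 0.726 to 1.48-fold for Hspa5, 0.854 to 1.20-fold for Apoe and 0.779 to 1.29-fold for App, and again no gene was called (edgeR adjusted p = 1.00 for each).

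Cycloheximide library 2 was the lowest of its group in all 3 genes, at least 1.5 times below both others. That pattern, looked for after the values were seen, was shared by 955 of 9290 genes with a mean of at least 10 CPM (10.3%). Without this library the log2 fold changes were 0.40 for Hspa5, 0.37 for Apoe and 0.33 for App (edgeR adjusted p = 1.00 for each). The directions turned negative in some fits, among them the one without cycloheximide library 3, at -0.075 for Hspa5, -0.17 for Apoe and -2.86e-04 for App.

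The salt comparison was made against vehicle libraries 4 and 5, which share the lower depth, and again none of the 3 genes was called. Hspa5 stood at 492 and 805 CPM in salt libraries 1 and 2, against 372 and 706 CPM in vehicle libraries 4 and 5. Apoe stood at 602 and 879 CPM with salt, against 764 and 609 CPM with vehicle. App stood at 1053 and 1104 CPM with salt, against 1026 and 1016 CPM with vehicle. The groups overlapped in Hspa5 and Apoe. They did not overlap in App, which was also so in 14.2% of all genes in the direction of a higher level with salt.

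The log2 fold change with salt was 0.26 for Hspa5 (95% interval -0.35 to 0.88), 0.12 for Apoe (-0.38 to 0.63) and 0.087 for App (-0.35 to 0.53), with an edgeR adjusted p of 1.00 for each. Here edgeR called 0% of the 9803 genes it tested, 185 of which reached an unadjusted p below 0.05, while DESeq2 called 0 and limma-voom 1. For App the interval spans 0.783 to 1.44-fold. Apoe was called in 1 alternative, at a log2 fold change of 0.92 (edgeR adjusted p = 0.0369), in which title numbers pair the salt libraries with vehicle libraries 1 and 2 of the other set. Hspa5 was -0.17 without vehicle library 4, and without salt library 2 it was -0.14, with Apoe at -0.17.

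**Figure D4:**
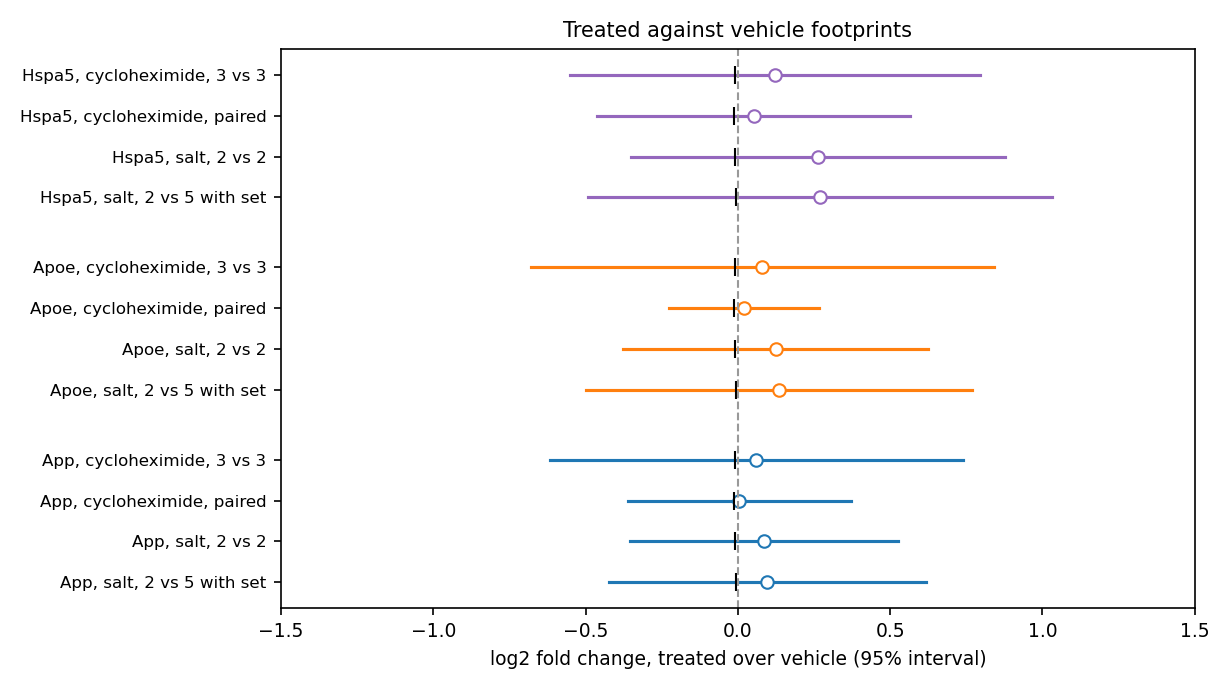
Fitted log2 fold change of treated over vehicle footprints on the x axis with its 95% interval, for each gene, treatment and design on the y axis. Black ticks mark the median of all genes and open points did not pass an adjusted p of 0.05. All 12 intervals shown include 0.

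Across the conditions Hspa5 was highest with salt at 648 ± 222 CPM (SD, n = 2). It was followed by vehicle libraries 4 and 5 at 539 ± 236 CPM (SD, n = 2), cycloheximide at 472 ± 180.3 CPM (SD, n = 3) and vehicle libraries 1 to 3 at 422 ± 41.7 CPM (SD, n = 3). RNA came last, at 315 ± 110.4 CPM (SD, n = 3) in libraries 1 to 3 and 185 ± 42.4 CPM (SD, n = 2) in libraries 4 and 5. In this order neighbouring groups overlapped, except that RNA libraries 1 to 3 reached 393 CPM and vehicle libraries 1 to 3 began at 395 CPM. The share of all genes without overlap in libraries 1 to 3 was not computed, so this gap is a description.

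App had the same order of groups, from 1078 ± 36.3 CPM (SD, n = 2) with salt and 1021 ± 7.00 CPM (SD, n = 2) in vehicle libraries 4 and 5 to 792 ± 292 CPM (SD, n = 3) with cycloheximide and 741 ± 139 CPM (SD, n = 3) in vehicle libraries 1 to 3. Its RNA stood at 529 ± 43.9 CPM (SD, n = 3) in libraries 1 to 3 and 408 ± 203 CPM (SD, n = 2) in libraries 4 and 5. In App the salt libraries did not overlap vehicle libraries 4 and 5, and vehicle libraries 1 to 3 did not overlap RNA libraries 1 to 3, while the other neighbours overlapped. For libraries 1 to 3 the share of all genes without overlap was not computed here either.

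Apoe was at 741 ± 196 CPM (SD, n = 2) with salt and 687 ± 109.6 CPM (SD, n = 2) in vehicle libraries 4 and 5. It then stood at 532 ± 123 CPM (SD, n = 3) in RNA libraries 1 to 3, 459 ± 185 CPM (SD, n = 3) with cycloheximide, 423 ± 101 CPM (SD, n = 3) in vehicle libraries 1 to 3 and 291 ± 173 CPM (SD, n = 2) in RNA libraries 4 and 5. Each neighbouring pair of Apoe groups overlapped, and of the 3 genes only Apoe had an RNA group with a higher mean than a footprint group.

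Over the 15 libraries, Hspa5 and App had a Pearson correlation of log2(CPM + 1) of 0.849, Apoe and App one of 0.805 and Hspa5 and Apoe one of 0.691. The points share library kind, depth and set, so these values are descriptions. Among 9290 genes with a mean of at least 10 CPM, the pattern nearest to Hspa5 was ENSRNOG00000014165 (r = 0.957), followed by ENSRNOG00000003029 (0.923) and ENSRNOG00000026963 (0.921). Nearest to App were ENSRNOG00000043387 (0.964), ENSRNOG00000003029 (0.960) and ENSRNOG00000021269 (0.956). Nearest to Apoe were ENSRNOG00000008943 (0.932), ENSRNOG00000057934 (0.922) and ENSRNOG00000003736 (0.919). The identifier ENSRNOG00000003029 was thus shared by the nearest genes of Hspa5 and App.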

How the data were processed

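The authors deposited 1 table of raw gene counts with 15 columns, each matched to a sample by its title. CASAVA, cutadapt 2.8, Bowtie2 2.3.5, STAR 2.7.3a, deepTools and the build Rnor_6.0 are named in the submitters' processing notes. The counting program, annotation and strand setting are not given in the sources used here. In RNA-seq columns 88.4% to 97.7% of nonzero counts were even, as when both mates of a pair are counted.

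Empty cells in 6 genes marked the library sets, and these genes were left out, leaving 22044. CPM is the count per 1000000 counts of these genes. Tests used edgeR 4.0.16 in R 4.3.3 (quasi-likelihood, TMM, filterByExpr, robust) over all genes, with Benjamini-Hochberg adjusted p under 0.05 called; limma 3.58.1 and DESeq2 1.42.0 were alternatives. Treatments were compared within a set, and footprints with RNA with the set as a term. The standard error is |log2 value| / √F of the test. All 3 genes passed the filter in every comparison. The fits were also run on simulated counts with known changes, and the share recovered is not given here. Exact permutation tests used Python 3.11.15, and over all libraries they permuted labels without regard to the set.

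No 2 libraries of a group agreed within sampling noise (smallest chi-square per degree of freedom 7.91). Cycloheximide and vehicle libraries of the same number deviated alike, with correlations of 0.838, 0.456 and 0.445 over 12018 genes, and were taken as paired by the title numbers. Cycloheximide 2 with vehicle 3 (0.538) and cycloheximide 3 with vehicle 2 (0.615) correlated more, so the data do not single out the pairing of numbers 2 and 3. The 3 genes and the lists were chosen with earlier results of these data known. Named genes were the 3 members and, by identifier, the 3 nearest patterns to each. Gene lists, cell type markers and protein sequences could not be matched to identifiers and were not used.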

Additional observations from a re-analysis of the deposited data

Results flagged for a closer look

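RNA-seq library 4 lay far below the other RNA libraries for App, at 264 CPM (95% Wilson interval 245 to 285) from 670 counts, while the other 4 stood between 501 and 580.01 CPM. The interval takes each count as separate, so it is too narrow if both mates of a pair were counted. Of 12 groups of values examined in this way 1 such library was found, where chance gives about 0.6 (1 in 20). The same library was also the lowest RNA library for Apoe, at 169 CPM, and for Hspa5, at 156 CPM.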

How the results depend on the processing

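Of 213 alternative tests of the 3 genes, 184 kept direction and side of the threshold. For Apoe, footprints against RNA, the log2 ratio and its loss of the call came with RLE factors (0.70), upper-quartile normalisation (0.68), total counts (0.28), DESeq2 (0.70), no set term (0.77), the replicate block (0.81, edgeR adjusted p = 0.0820), libraries 1 to 3 alone (0.23) and libraries 4 and 5 alone (1.49), and it ran from 0.35 to 0.96 with a library left out. These footprint and RNA numbers did not pair the libraries (correlations -0.21 to 0.086), and apart from Apoe here and with salt the block changed no call of the 3 genes. With cycloheximide, all 5 vehicle libraries gave -0.024 for Hspa5, -0.22 for Apoe and -0.13 for App; with a library left out the values ran from -0.075 to 0.40, -0.17 to 0.37 and -0.15 to 0.33. With salt and a library left out, Hspa5 ran from -0.17 to 0.85 and Apoe from -0.17 to 0.36; the replicate block over all 5 vehicle libraries gave 0.92 for Apoe and 450 calls, no filter on low counts gave 2 calls, limma-voom 1, and leaving out a library 0 to 19. Footprints against RNA called 5497 genes, 7869 in libraries 1 to 3 alone and 441 in libraries 4 and 5 alone. The set difference called 400 genes, 253 with upper-quartile normalisation, 184 with total counts, 1627 with DESeq2, 51 with the replicate block and 37 to 3031 with a library left out. The App over Hspa5 count ratio ran from -0.18 to 0.091 with a library left out. The causes of these shifts were not tested. Alternatives on gene lists and N-terminal stretches were not run.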

Other observations

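The balance between the 3 genes within a library was also read under the treatments. With cycloheximide App had 1.46 to 1.88 times the counts of Hspa5 and 1.42 to 2.03 times those of Apoe, inside the vehicle ranges of libraries 1 to 3, which were 1.48 to 2.23 and 1.32 to 2.27, except for the lowest App over Hspa5 value. Hspa5 over Apoe lay between 0.976 and 1.08 in the 3 cycloheximide libraries, against 0.826 to 1.53 with vehicle. With salt App over Hspa5 was 1.37 to 2.14 and App over Apoe 1.26 to 1.75, against 1.44 to 2.76 and 1.34 to 1.67 in vehicle libraries 4 and 5, so the salt values reached slightly past the vehicle ranges. These values were not tested.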
